A study of Mus musculus with 6 samples.

Results

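Interferon-stimulated genes and the genes of MHC class I antigen presentation were examined in the uterus with and without Indian hedgehog (Ihh), a secreted signal of the uterine epithelium. The group was a fixed list of 31 genes, of which 29 had at least 1 probe set whose platform annotation names a single gene, out of 18193 genes so named on the array. All 29 passed the filter on dim probe sets, as did 15530 genes in all. The only probe set for Isg15 also names another gene, and Ifi44 had none, so neither entered the array comparisons. Both are part of the promoter search below. The control group was 3 uterus samples of genotype Ihhf/f, in which both Ihh alleles carry recombination sites but no Cre is present. The other group was 3 uterus samples of genotype Ihhd/d (PRcre/+Ihhf/f), which also carry a Cre knocked into the progesterone receptor gene (Pgr), made to delete Ihh in cells that express Pgr. All 6 belong to day -1 of an artificially induced decidual response, in which hormones and a stimulus drive the uterine stroma to differentiate as in pregnancy. No mouse age, strain background or pooling is stated, and whether each sample is a separate mouse is not stated either, so the p-values rest on the spread among these samples only, and that spread may be technical. The effect of the Cre insertion at Pgr and that of Ihh loss cannot be told apart. For both groups the source label names a different mouse model (activated Smoothened); the titles, genotypes and design text disagree with it and were followed here.

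Interferons are cytokines that cells release on viral or other nucleic acid signals. Type I interferons act through a receptor whose signal brings a factor containing STAT2 and IRF9 to interferon-stimulated response elements before antiviral genes, and interferon gamma acts at gamma-activated sites. MHC class I molecules present peptides, made by the proteasome and carried into the endoplasmic reticulum by the TAP transporter, on the surface of nearly all cells, and interferons raise their production. In the uterus interferon-stimulated genes are known as targets of signals from the early conceptus in several mammals and of uterine immune cells.

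The stretch of 250 bases before the gene start is shown for 6 genes because these letters tie the list to interferon signalling and because their array values, given further on, differ. The sequences are those of RefSeq on build GRCm38.p6, read 5′ to 3′ on the strand of the gene, and capitals mark each match to the interferon-stimulated response element. Ifit1 lies at chr19:34640639-34640888 (plus strand), Rsad2 at chr12:26456453-26456702 (minus strand) and Bst2 at chr8:71537473-71537722 (minus strand). Cxcl10 lies at chr5:92348890-92349139 (minus strand), B2m at chr2:122147437-122147686 (plus strand) and H2-D1 at chr17:35262844-35263093 (plus strand).
Ifit1: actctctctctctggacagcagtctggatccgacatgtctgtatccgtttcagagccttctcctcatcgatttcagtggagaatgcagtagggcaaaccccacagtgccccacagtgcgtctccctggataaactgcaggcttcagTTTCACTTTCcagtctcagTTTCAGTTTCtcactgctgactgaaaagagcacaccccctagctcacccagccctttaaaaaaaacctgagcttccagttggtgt
Rsad2: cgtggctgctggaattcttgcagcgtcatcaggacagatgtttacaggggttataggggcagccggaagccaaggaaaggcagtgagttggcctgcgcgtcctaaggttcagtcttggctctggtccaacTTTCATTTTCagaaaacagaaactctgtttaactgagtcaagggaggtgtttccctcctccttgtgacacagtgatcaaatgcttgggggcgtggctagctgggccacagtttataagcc
Bst2: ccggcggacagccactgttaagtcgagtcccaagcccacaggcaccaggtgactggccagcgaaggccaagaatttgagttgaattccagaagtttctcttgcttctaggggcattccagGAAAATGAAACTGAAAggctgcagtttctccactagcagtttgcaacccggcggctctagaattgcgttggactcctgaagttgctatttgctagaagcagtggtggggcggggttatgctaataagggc
Cxcl10: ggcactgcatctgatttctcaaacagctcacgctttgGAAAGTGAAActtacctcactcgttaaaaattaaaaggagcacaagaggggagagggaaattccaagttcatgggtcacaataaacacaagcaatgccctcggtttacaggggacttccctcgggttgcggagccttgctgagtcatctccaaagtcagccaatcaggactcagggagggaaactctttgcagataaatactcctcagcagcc
B2m: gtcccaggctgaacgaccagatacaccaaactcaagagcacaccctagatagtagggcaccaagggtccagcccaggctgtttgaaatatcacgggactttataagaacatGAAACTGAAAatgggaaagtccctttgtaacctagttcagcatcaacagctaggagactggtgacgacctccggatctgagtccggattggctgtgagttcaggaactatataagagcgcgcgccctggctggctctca
H2-D1: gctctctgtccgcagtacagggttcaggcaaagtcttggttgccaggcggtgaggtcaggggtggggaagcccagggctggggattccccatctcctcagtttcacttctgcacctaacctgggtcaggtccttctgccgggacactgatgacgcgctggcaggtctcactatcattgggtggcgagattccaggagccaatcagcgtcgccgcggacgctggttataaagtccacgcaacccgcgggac

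The element was searched as GAAA, any 2 bases and a second GAAA, on both strands, in a window of 250 bases before to 50 after each gene start. Of the 31 genes 23 had such a window, and 12 of these (52.2%) held the element, against 1079 of 27025 genes with a window (3.99%). Ifit1 held 2 matches, which begin 104 and 85 bases before the start, and Ifit3 held 2 as well. In Bst2 a pair of matches overlap each other, beginning 130 and 124 bases before the start. Rsad2, B2m and Cxcl10 held 1 each, and H2-D1 held no exact match in this window. Looser forms of the element were not searched, so a gene without an exact match may still hold one. The gamma-activated site, searched as TTCNNNGAA, which reads the same on both strands, was found in 5 of 23 (21.7%) against 9.55% of all genes with a window. It lay in Irf1, Ifit2, Oas1a, Psmb8 and Bst2, and in Bst2 it overlaps the first response element. A match is a description of letters and not a bound site.

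**Figure D1:**
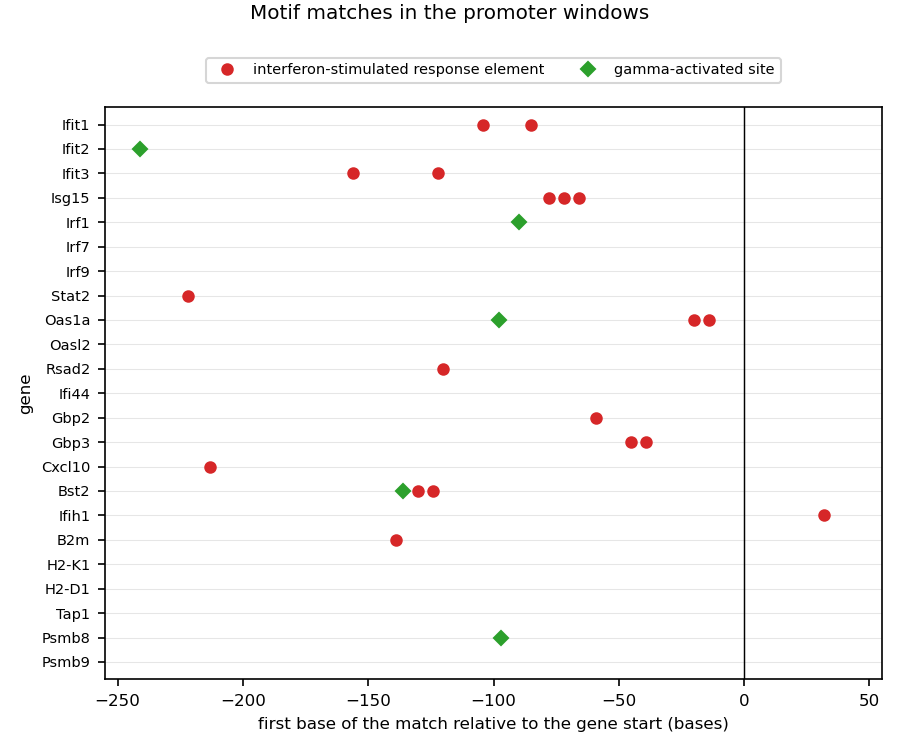
Position of motif matches (x axis, bases from the gene start at 0) in the promoter windows of the 23 genes that have a window (y axis). Circles are interferon-stimulated response elements and diamonds are gamma-activated sites; 12 genes have at least 1 circle and 5 have a diamond.

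Median intensities of the 6 arrays lay between 121.4 and 142.5. Control replicate 2 had the highest median and the highest lower quartile (79.8, against 66.6 to 72.1), and it was the brightest array for 40.3% of all genes tested. Gli1, the transcription factor whose transcript reports Hedgehog signalling, read 355.7 to 515.2 on the control arrays and 64.8 to 76.3 on the Ihh-ablated arrays. The probe set for Ihh itself read 155.5 ± 13.3 and 116.7 ± 21.5 (SD, n = 3 each), a log2 difference of -0.43 that did not pass (adjusted p = 0.164), and whether it lies in the deleted stretch is not known here. Transcripts that mark other tissues were high on some arrays. The summed intensity of 6 adipocyte markers was 1377 to 6673 on the control arrays and 5183 to 14135 on the Ihh-ablated arrays, highest in Ihh-ablated replicate 3. The 5 pancreas markers summed to 47974 in Ihh-ablated replicate 2 and to 1743 or less elsewhere, and the 7 skeletal muscle markers to 11540 in control replicate 3. Defining uterine markers were bright as a sum on all arrays, with 11 endometrial stroma markers summing to between 48457 and 54186. The sum hides single genes: in limma 1 of the 11 rose, Dcn (log2 difference 0.24, adjusted p = 0.0488), and 2 fell. Those lower were Thy1 (-1.44, adjusted p = 0.00139) and Vim (-0.37, adjusted p = 0.0139). In whole tissue, fewer cells of a type and less RNA per cell cannot be told apart.

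Ihh-ablated replicate 3 stood apart in the interferon group, and its values are therefore given separately throughout. It was the brightest of the 6 arrays for 22 of the 29 genes (75.9%), against 19.6% of all genes tested. It lay above both other Ihh-ablated arrays for 26 of 29 (89.7%), against 35.2% of all genes, by a median of 0.29 on the log2 scale, where the median over all genes was -0.00. For 5 genes the excess was over 1.5-fold (17.2%, against 0.631% of all genes): Ifit1, Oasl2, Usp18, Irf7 and Gbp3. At the other end control replicate 2 was the dimmest array for 11 genes (37.9%, against 24.4% of all genes). The 22 interferon-stimulated genes had geometric mean intensities of 215.8, 194.2 and 214.1 in control replicates 1 to 3 and of 223.7, 226.9 and 297.6 in Ihh-ablated replicates 1 to 3. The 7 class I genes read 778.2, 795.5 and 843.6 on the control arrays and 794.1, 800.1 and 930.9 on the Ihh-ablated arrays. By this mean Ihh-ablated replicates 1 and 2 lay just above the control range for the first group and inside it for the second. The summed intensity of the class I genes was 10718 to 11730 on the control arrays and 11772, 12348 and 14396 on the Ihh-ablated arrays.

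**Figure D2:**
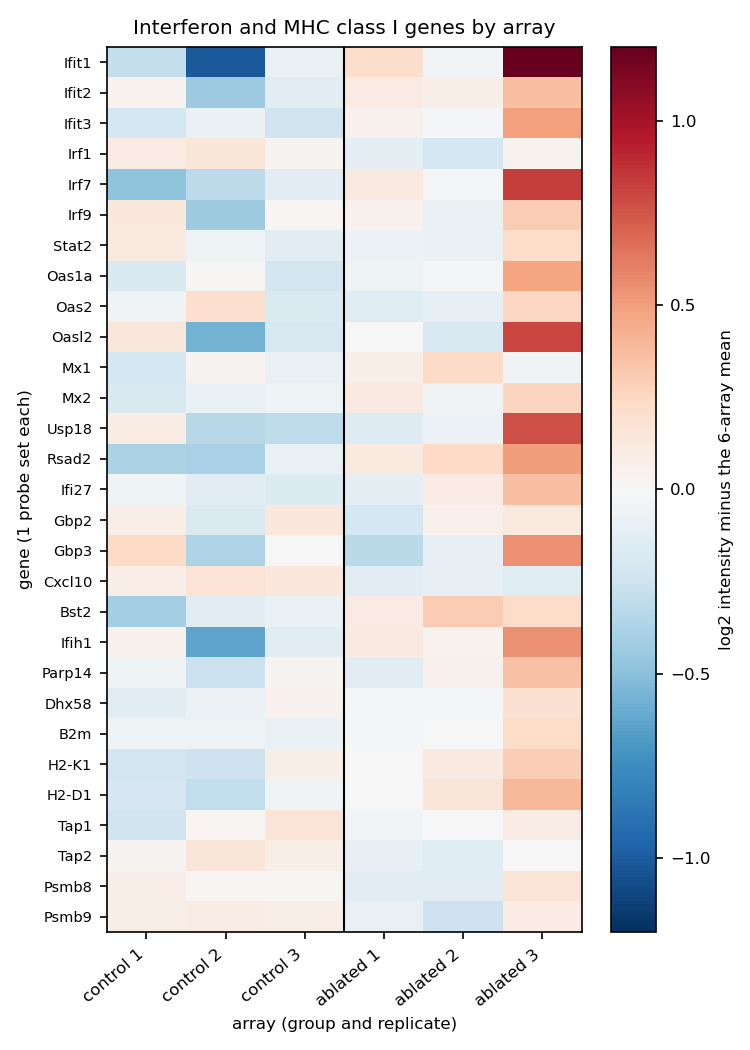
Heat map of the 29 measured genes (rows, 1 probe set each) on the 6 arrays (columns), as log2 intensity minus the 6-array mean of the gene, with red above and blue below it. The column of Ihh-ablated replicate 3 is the reddest for 22 genes, and control replicate 2 is the bluest for 11.

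The comparison of Ihh-ablated with control uteri asked whether these genes differ without Ihh. No gene of the group passed the test: 0 of 29 rose and 0 fell at an adjusted p under 0.05 (limma over all probe sets tested, Benjamini-Hochberg), where 1.28% of all genes rose and 1.53% fell. The lowest adjusted p was 0.0776, and at an unadjusted p under 0.05 there were 9 genes higher (31.0%, against 9.99% of all genes) and 0 lower (against 14.2% of all genes). The median log2 difference, Ihh-ablated minus control, was 0.19 over the 29 genes and -0.04 over all genes, and 23 of 29 were positive. Without Ihh-ablated replicate 3 the median was 0.07 and 20 were positive. Each Ihh-ablated array lay above each control array for 9 genes (31.0%, against 13.3% of all genes), and each lay below for 2 (6.90%, against 19.0%). With Ihh-ablated replicates 1 and 2 alone, 10 genes (34.5%) lay above all control arrays, against 16% of all genes. Over the 53 probe sets of these genes 44 were tested, of which 34 had a positive difference and 0 were called, where 2.14% of all probe sets were called in either direction. Without control replicate 3, which carries the muscle transcripts, 4 genes passed, all higher (Rsad2, Bst2, H2-K1 and H2-D1), while 4.60% of all genes rose.

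**Figure D3:**
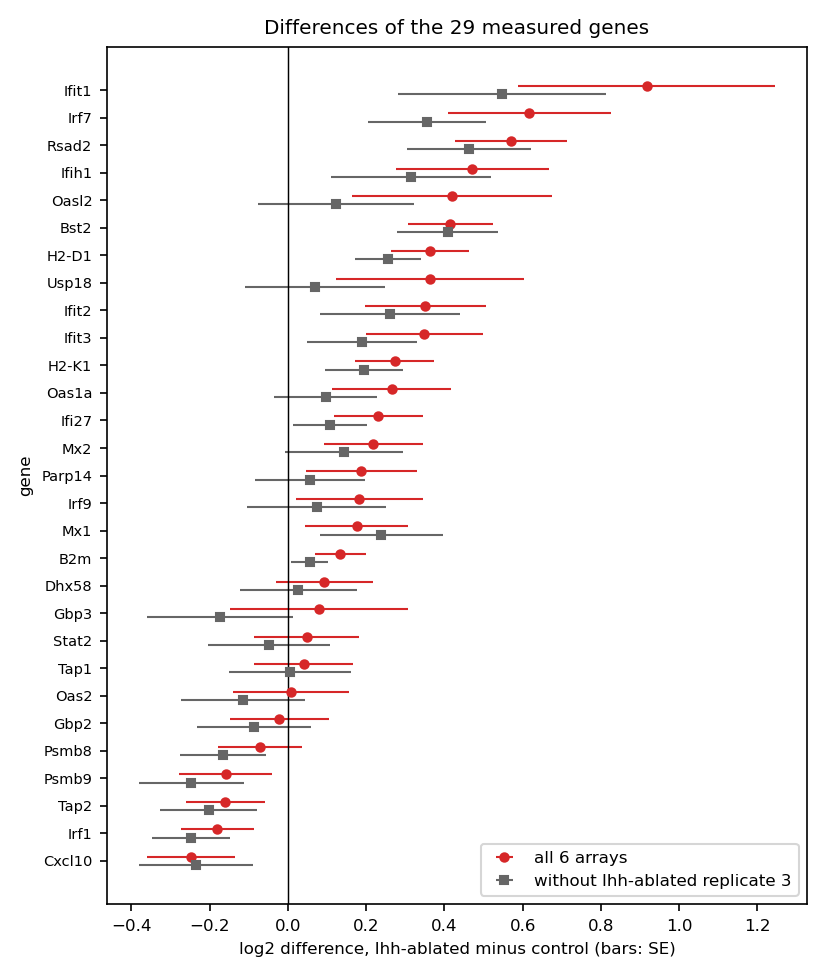
Log2 difference, Ihh-ablated minus control (x axis), of the 29 genes (y axis), with bars for the SE of the limma fit. Circles use all 6 arrays and squares leave out Ihh-ablated replicate 3; the differences of Ifit1, Irf7, Oasl2, Usp18 and Gbp3 are smaller or opposite without it, and that of Bst2 stays at 0.41.

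Among the sensors of foreign RNA, Ifih1 (MDA5, which binds long double-stranded RNA) read 233.9, 146.3 and 207.6 on the control arrays and 244.4, 233.6 and 331.6 on the Ihh-ablated arrays. The groups overlapped, since Ihh-ablated replicate 2 lay just below control replicate 1, and control replicate 2 was the lowest. The log2 difference was 0.47 (SE 0.20, adjusted p = 0.198), and 0.31 without Ihh-ablated replicate 3. Dhx58 (LGP2, which modulates the RNA sensors) was dim at 76.9 to 94.7 on the 6 arrays, with a difference of 0.09 (SE 0.12).

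The transcription factors that relay interferon differed among themselves. Irf7, which drives and is itself induced by type I interferon, read 196.9, 221.2 and 250.2 on the control arrays and 296.5, 271.3 and 488.4 on the Ihh-ablated arrays. Every Ihh-ablated array was above every control array, and replicate 3 was far above the rest. The log2 difference was 0.62 (1.53-fold, SE 0.21, adjusted p = 0.141), and 0.36 without that array. Irf1, a factor downstream of interferon gamma, leaned the other way with a difference of -0.18 (SE 0.09, adjusted p = 0.274), from 641.3 to 693.1 on the control arrays and 542.2 to 646.9 on the Ihh-ablated arrays. Irf9 and Stat2, partners in the factor that binds the response element, had differences of 0.18 (SE 0.16) and 0.05 (SE 0.14), and the sign for Stat2 turned without Ihh-ablated replicate 3 (-0.05).

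The Ifit genes encode proteins that bind viral RNA lacking the host cap marks. Ifit1, the gene with the largest difference of the group, read 98.8, 59.9 and 114.6 on the control arrays and 139.8, 118.0 and 277.0 on the Ihh-ablated arrays. The groups did not overlap, with control replicate 2 lowest and Ihh-ablated replicate 3 far above every other array. The means were 91.1 ± 28.2 and 178.3 ± 86.2 (SD, n = 3 each), a log2 difference of 0.92 (1.89-fold, SE 0.33, adjusted p = 0.156). It was 0.55 without Ihh-ablated replicate 3, and 0.27 when control replicate 2 was left out as well, a setting chosen after seeing the data. Ifit2 read 148.7, 106.6 and 131.0 against 153.8, 151.7 and 184.8, and Ifit3 176.5, 192.9 and 173.3 against 211.9, 200.3 and 286.9. Both had groups that did not overlap and a difference of 0.35 (SE 0.15 each, adjusted p = 0.212 and 0.207).

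Rsad2 (viperin, an enzyme that makes a chain-terminating nucleotide) had the lowest p of the group. Its brightest probe set read 153.7, 153.2 and 188.8 on the control arrays and 216.7, 236.9 and 283.5 on the Ihh-ablated arrays. The Ihh-ablated arrays were all above the control arrays, with no single array far from the rest. The log2 difference was 0.57 (1.48-fold, SE 0.14, adjusted p = 0.0776), and 0.46 without Ihh-ablated replicate 3. The other Rsad2 probe sets disagreed, at 0.32 and -0.53. The latter read 206.7, 285.0 and 161.2 on the control arrays and 155.5, 143.7 and 141.7 on the Ihh-ablated arrays, with control replicate 2 the highest, so no single direction holds for this gene.

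Bst2 (tetherin, a membrane protein that holds budding virus on the cell) had nearly the same difference with and without Ihh-ablated replicate 3. It read 514.9, 620.3 and 647.4 on the control arrays and 730.7, 843.1 and 795.8 on the Ihh-ablated arrays. The groups did not overlap and Ihh-ablated replicate 2, not 3, was the brightest. The means were 594.2 ± 70.0 and 789.9 ± 56.4 (SD, n = 3 each), a log2 difference of 0.42 (1.33-fold, SE 0.11, adjusted p = 0.0853). The difference was 0.41 when Ihh-ablated replicate 3 was left out and 0.44 when control replicate 2 was dropped too. With array weights the adjusted p was 0.0446, and 1.99% of all genes rose in that setting.

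**Figure D4:**
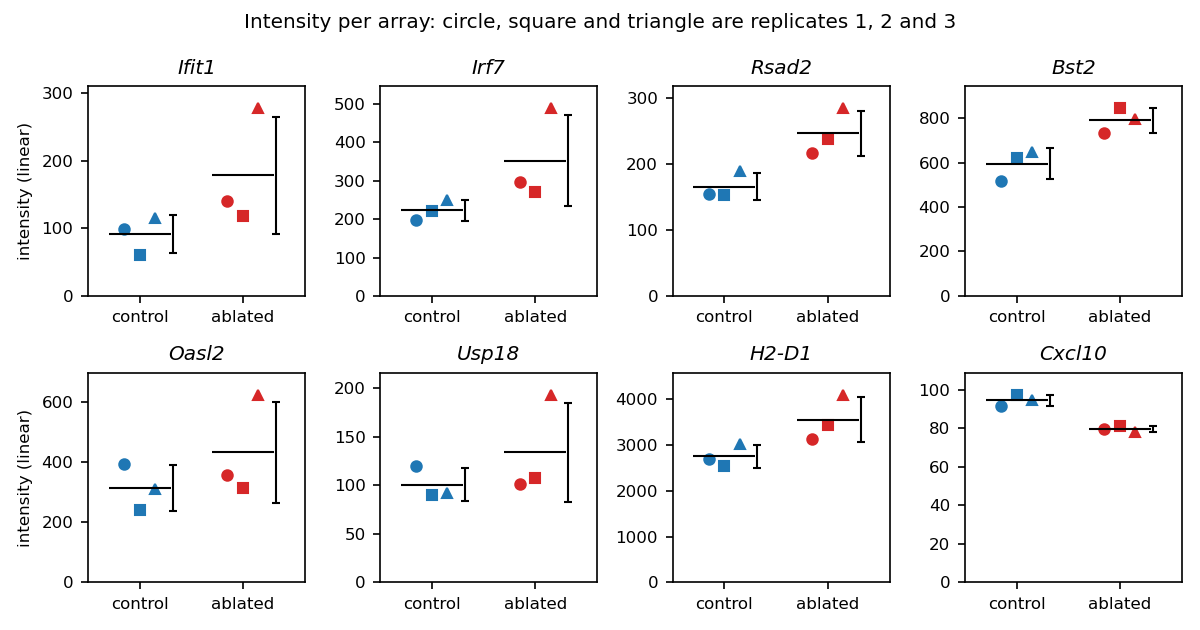
Linear intensity (y axis, from 0) of 8 genes in control (blue) and Ihh-ablated (red) uteri, with circles, squares and triangles for replicates 1, 2 and 3, a line at the mean and a bar of 1 SD (n = 3). The triangle of Ihh-ablated replicate 3 lies far above the other Ihh-ablated arrays for Ifit1, Irf7, Oasl2 and Usp18, but not for Bst2 (795.8, below replicate 2) or Cxcl10.

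Among the 2′-5′-oligoadenylate synthetase family, whose active members switch on an RNA-degrading enzyme, Oasl2 was high in replicate 3 alone. It read 392.2, 240.4 and 311.6 on the control arrays and 358.4, 315.0 and 622.6 on the Ihh-ablated arrays. Ihh-ablated replicates 1 and 2 lay within the control range. The log2 difference of 0.42 (SE 0.26, adjusted p = 0.340) was 0.12 when Ihh-ablated replicate 3 was left out and -0.06 when control replicate 2 was dropped too. Oas1a read 269.2 to 316.6 on the control arrays and 302.0, 311.6 and 435.3 on the Ihh-ablated arrays (0.27, SE 0.15), and Oas2 differed by 0.01 (SE 0.15) with a sign that turned without Ihh-ablated replicate 3 (-0.11).

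Usp18, a protease that removes ISG15 from proteins and damps the type I interferon receptor, showed the same layout as Oasl2. It read 120.5, 90.3 and 91.9 on the control arrays and 101.9, 108.0 and 193.3 on the Ihh-ablated arrays. Only Ihh-ablated replicate 3 lay outside the control range, and the difference of 0.36 (SE 0.24, adjusted p = 0.375) was 0.07 without it. Gbp3, a GTPase of the guanylate-binding family that attacks vacuoles of intracellular parasites, read 401.8, 262.1 and 341.5 on the control arrays and 270.9, 316.3 and 495.9 on the Ihh-ablated arrays. Its difference was 0.08 (SE 0.23) and turned to -0.17 without that array. Gbp2, of the same family, differed by -0.02 (SE 0.13).

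The remaining effectors had small differences. The dynamin-like antiviral GTPases Mx1 and Mx2 were dim, at 81.4 to 110.6 and 106.6 to 145.3 over the 6 arrays, and differed by 0.18 (SE 0.13) and 0.22 (SE 0.13). Mx1 and Cxcl10 were the only genes besides Bst2 without a clear excess in Ihh-ablated replicate 3: the excess over the other Ihh-ablated arrays was -0.19 and -0.04 on the log2 scale, against 0.02 for Bst2 and at least 0.10 for the other 26 genes. Ifi27, a mitochondrial protein induced by interferon, differed by 0.23 (SE 0.11), and Parp14, an ADP-ribosyltransferase, by 0.19 (SE 0.14). A second probe set showed almost no difference for either gene, at 0.002 for Ifi27 and -0.007 for Parp14.

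Cxcl10, the chemokine that draws CXCR3-bearing T and NK cells, had the most negative difference of the 6 genes below 0. It read 91.2, 97.2 and 94.6 on the control arrays and 79.4, 80.9 and 78.2 on the Ihh-ablated arrays. Every Ihh-ablated array lay below every control array, with small spread in both groups. The log2 difference was -0.25 (1.19-fold lower, SE 0.11, adjusted p = 0.228), at a signal not far above the limit of the filter on dim probe sets (71.4).

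The class I heavy chains and their light chain were bright and differed slightly. H2-D1, a classical heavy chain, read 2699, 2526 and 3011 on the control arrays and 3119.7, 3429.7 and 4082 on the Ihh-ablated arrays. The groups did not overlap, and the order within the Ihh-ablated group put replicate 3 on top. The log2 difference was 0.36 (1.29-fold, SE 0.10, adjusted p = 0.1001), and 0.26 without that array. H2-K1, the other classical heavy chain, read 2407, 2369 and 2957 on the control arrays and 2829, 3038 and 3457 on the Ihh-ablated arrays, with an overlap at control replicate 3 (0.27, SE 0.10, adjusted p = 0.162). The brightest probe sets of both genes are of a type that can bind several related sequences, and class I genes are a family of near copies, so their signals cannot be assigned to 1 gene with certainty. The 4 probe sets of H2-K1 ranged from -0.02 to 0.37, and that at 0.37 had groups that did not overlap. B2m, the light chain shared by all class I molecules, read 4641, 4624 and 4560.0 on the control arrays and 4747, 4833 and 5636 on the Ihh-ablated arrays. The groups did not overlap, the 3 control arrays lay close together and Ihh-ablated replicate 3 alone stood clear of them. The difference of 0.13 (SE 0.07, adjusted p = 0.257) was 0.06 without it. A second B2m probe set had a difference of 0.14, but its groups overlapped and its control arrays were less close. It read 4464, 4076 and 4366 on the control arrays and 4397, 4567 and 5341 on the Ihh-ablated arrays.

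Of 4 peptide supply genes, 3 had a negative difference, but Psmb8 read 0.02 when each array was centred on its median. Tap1 and Tap2 form the peptide transporter, and Psmb8 and Psmb9 are interferon-inducible catalytic subunits of the immunoproteasome. In the gene table of assembly GRCm38.p6 these 4 genes follow each other without another protein-coding gene between them. Tap1 differed by 0.04 (SE 0.13), Tap2 by -0.16 (SE 0.10), Psmb8 by -0.07 (SE 0.11) and Psmb9 by -0.16 (SE 0.12), with adjusted p values of 0.355 to 0.858. Psmb9 read 231.7, 235.6 and 234.3 on the control arrays and 208.3, 186.5 and 236.5 on the Ihh-ablated arrays. Its control arrays were nearly level, and Ihh-ablated replicate 3 alone was at or above them. For Tap2 every Ihh-ablated array (264.2, 255.2 and 283.6) lay below every control array (288.5, 311.8 and 296.6). Without Ihh-ablated replicate 3 the differences of Tap2, Psmb8 and Psmb9 were -0.20, -0.17 and -0.25, and 0 of them passed.

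The excess of replicate 3 was set beside the promoter letters. The excess of Ihh-ablated replicate 3 over the other Ihh-ablated arrays had a log2 median of 0.32 over 11 measured genes with an exact match. Over 10 without an exact match, H2-D1 and H2-K1 among them, it was 0.28. Ifit1 had the largest value of the first set (1.11) and Cxcl10 the lowest (-0.04), although both carry the element. Oasl2 had the largest value of the second (0.89). No test was made of this difference.

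Further genes of the pathway were taken from 5 lists, and 0 of them passed in limma. Of 14 tested interferon receptor and relay genes 0 rose and 0 fell, with a median of 0.06. At an unadjusted p under 0.05, 2 were higher and 0 lower. No interferon ligand was among the 14, so nothing is said here of the interferon transcripts themselves. Ifngr1, a chain of the interferon gamma receptor, read 379.7, 341.2 and 425.7 on the control arrays and 454.0, 456.2 and 495.9 on the Ihh-ablated arrays, without overlap (0.30, adjusted p = 0.158). The phosphatase Ptpn11 (0.16, adjusted p = 0.173) and the kinase Jak2 (0.23, adjusted p = 0.292) came next. Among 16 nucleic acid sensors and upstream factors 0 passed (2 higher and 3 lower unadjusted) and the median was 0.01. Tlr9, the receptor for unmethylated DNA, had a difference of -0.64 (adjusted p = 0.0732), Zbp1, a sensor of left-handed nucleic acids, -0.58 (adjusted p = 0.137), and the factor Irf4 0.87 (adjusted p = 0.157). For Tlr9 and Zbp1 control replicate 2 was the brightest array. Irf4 was dim and its groups overlapped. It read 37.5, 51.0 and 84.0 on the control arrays and 66.8, 115.6 and 126.6 on the Ihh-ablated arrays.

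A wider list of interferon-stimulated genes outside the group had a smaller median. Of 36 tested, 0 rose and 0 fell, (4 higher and 3 lower unadjusted), with a median of 0.06, and 20 were positive. Ihh-ablated replicate 3 was the brightest array for 18 of them (50%, against 19.6% of all genes) and control replicate 2 for 11 (30.6%, against 40.3%). Irgm1, a GTPase that acts on parasite vacuoles, had the lowest p at 0.42 (adjusted p = 0.114), followed by the RNA editor Adar at -0.47 (adjusted p = 0.141) and the synthetase Oas3 at -0.52 (adjusted p = 0.166). For Adar and Oas3 control replicate 2 was the brightest array. Adar read 804.8, 898.6 and 576.0 on the control arrays, and its groups overlapped. Oas3 read 357.8, 544.9 and 297.2 there, and its groups did not. Of 14 other class I assembly and peptide supply genes 0 passed (1 higher and 0 lower unadjusted), and the median was 0.03. Cd1d1, a class I-like molecule that presents lipids, had the lowest p (0.49, adjusted p = 0.142), then the peptide trimmer Erap1 (0.30, adjusted p = 0.250) and the chaperone Calr (-0.16, adjusted p = 0.316). The 14 constitutive proteasome subunits had a median of -0.02, and 0 passed (0 higher and 1 lower unadjusted), the lowest p being that of Psmb3 (-0.35, adjusted p = 0.105).

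Markers of cell types that carry these transcripts were set beside the group, array by array. Of all genes tested, 19.6% were brightest in Ihh-ablated replicate 3, 9.61% in Ihh-ablated replicate 1 and 40.3% in control replicate 2. The 7 class II genes, the mark of antigen-presenting cells, were highest in Ihh-ablated replicate 3 for 5 of 7. Their summed intensity was 5951 to 6772 on the control arrays and 7083, 7098 and 8729 on the Ihh-ablated arrays. In limma 0 of 7 passed (4 higher and 0 lower unadjusted), the lowest p being that of H2-Eb1 (0.44, adjusted p = 0.126). Of the 7, 5 had a positive difference. H2-Oa (-0.25) and Ciita (-0.18), named after their values were seen, had a negative one. The 11 macrophage markers summed to 6332, 6631 and 7218 on the control arrays and 7432, 6366 and 8059 on the Ihh-ablated arrays, with C1qc at 0.43 (adjusted p = 0.115), Lyz2 at 0.48 (adjusted p = 0.150) and Adgre1 at 0.42 (adjusted p = 0.153) the lowest in p, and 0 of 11 passed (3 higher and 0 lower unadjusted). Of the 11, 9 had a positive difference and Csf1r (-0.22) and Cd14 (-0.01) a negative one, and 4 were brightest in Ihh-ablated replicate 3 and 4 in Ihh-ablated replicate 1. The 9 endothelial markers summed to 4965 to 5338 on the control arrays and 4806, 5006 and 5602 on the Ihh-ablated arrays, and 4 of 9 were brightest in Ihh-ablated replicate 3. Of the 9, 0 rose and 1 fell, the junction cadherin Cdh5 (-0.57, adjusted p = 0.0275). T and NK cell, neutrophil and dendritic cell markers were not highest in replicate 3. They were dim, with geometric mean intensities of 108.0 to 149.3, 119.3 to 170.5 and 136.6 to 198.5 on the 6 arrays. All genes tested had 285.3 to 306.4. Control replicate 2, with the highest lower quartile, was the brightest for 8 of 11 T and NK cell and 6 of 6 neutrophil markers. Cell content was not tested. The 11 T and NK cell markers summed to 1350 to 1791 on the control arrays and 1216 to 1296 on the Ihh-ablated arrays, lowest in replicate 3, and the 6 neutrophil markers to 795.7 to 1106 and 750.4 to 795.5. The 8 dendritic cell markers, of which Bst2 is 1, had a median difference of -0.26, and 7 of them were brightest in control replicate 2. The highest control mean among the T and NK cell markers was that of Cd8a, at 218.1. Of the 6 adipocyte markers 4 were brightest in Ihh-ablated replicate 3 and the other 2, Lep and Ucp1 (named after their values were seen), in control replicate 2. Adipoq, the adipocyte hormone adiponectin, read 266.2, 906.5 and 1649 on the control arrays and 1288, 2240 and 3946 on the Ihh-ablated arrays. Their part in the values of the interferon group was not tested. The 12 epithelial markers, all positive, had a median difference of 0.40, and 0 of 12 passed (7 higher and 0 lower unadjusted).

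**Figure D5:**
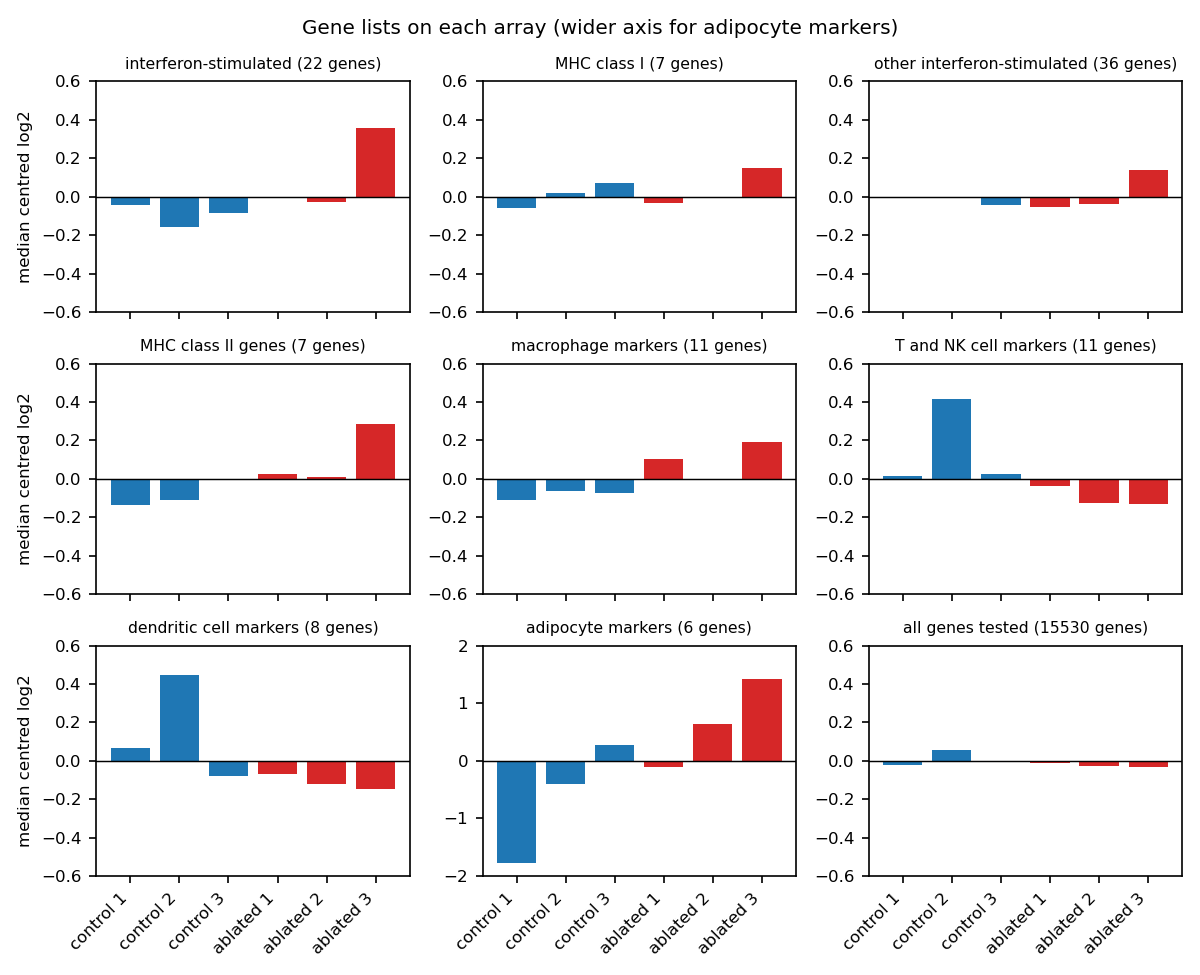
Median over the genes of a list of log2 intensity minus the 6-array mean (y axis) on each array (x axis, control blue, Ihh-ablated red). Bars of Ihh-ablated replicate 3 are the highest for interferon-stimulated genes (0.36), class I genes (0.15) and other interferon-stimulated genes (0.14). They are also the highest for class II genes (0.29), macrophage markers (0.19) and adipocyte markers (1.43, wider axis). T and NK cell markers, dendritic cell markers and all genes tested peak in control replicate 2.

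The genes outside the list that tracked it most closely over the 6 arrays were ranked by Pearson correlation with the mean of the 29 centred log2 levels. The correlations, over 6 arrays that share their normalization and with replicate 3 as an extreme point, are descriptions. The highest was that of Trafd1, an interferon-induced feedback regulator of innate signalling (r = 0.99), at 325.5, 283.3 and 316.0 on the control arrays and 332.3, 337.9 and 443.0 on the Ihh-ablated arrays. Ifngr2, the other chain of the interferon gamma receptor, and Ctss, the lysosomal protease cathepsin S that trims the class II invariant chain, were also among the first 12 (r = 0.98 and 0.97). The other 9 were Tnpo1, Sun1, Echdc1, Dvl2, Glud1, BC005537, Prkar2b, Spin1 and Pank3. Each of the 12 was brightest in Ihh-ablated replicate 3, among them Prkar2b, a regulatory subunit of protein kinase A, at 147.8 to 217.0 on the other arrays and 483.8 there.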

How the data were processed

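Biotinylated cRNA made from uterine total RNA was hybridised to Affymetrix arrays, per the labels' protocols. The deposited values are 1 linear intensity for every probe set and array. How the authors summarised, background-corrected and normalized them is not stated in the labels. Background handling affects dim genes most. After 64 control probe sets were removed from 45101, the annotation paired 34945 with a single symbol, 932 with more than 1 and 9160 with none; 34741 were found in the GRCm38.p6 gene table. Values were floored at 16 and log2-transformed, and the dimmest 25% by mean (below 71.4) were dropped, leaving 33777. limma 3.58.1 (R 4.3.3) tested ablated against control arrays with lmFit and trended eBayes (residual degrees of freedom 4, prior 5.25). Benjamini-Hochberg adjustment covered every probe set tested. The brightest probe set stood for its gene. With 3 arrays a group, their number limits precision. In simulations on 33777 probe sets, 95 of 100 true 2-fold changes and 100 of 100 true 4-fold changes were found, and 20 of 215 calls were false. The simulated noise was independent for each value, with no array set apart, and no change under 2-fold was planted. Every difference of the interferon group was under 2-fold, so these shares do not tell how readily such differences would be found. Named are every gene of the group, Gli1 as a check, the 12 most correlated genes and, from other lists, genes among the 3 of lowest p or the brightest 3. Genes, lists and alternatives were chosen with earlier results of these data known; settings that drop a pair of arrays were added after seeing the data. Plots used matplotlib 3.10.9 (Python 3.11.15).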

Additional observations from a re-analysis of the deposited data

How the results depend on the processing

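With the replicate number as a block, 6 genes (Ifit1, Irf7, Rsad2, Bst2, H2-K1 and H2-D1) and 8 probe sets were called higher, and 456 of 15530 genes were. Whether the numbers pair the samples cannot be decided from these values. Same-numbered deviations correlated at -0.15, -0.04 and 0.25 for replicates 1, 2 and 3, and only replicate 3 correlated highest with its own number. The count of 0 called genes became 1 with array weights (1 probe set), where 1.99% of all genes rose. It became 2 at an adjusted p threshold of 0.10 (2 probe sets), where 2.84% of all genes rose. Leaving out 1 array gave 0 to 4 genes and 0 to 6 probe sets higher and 0 to 1 probe set lower, with calls only without control replicate 3. Without control replicate 3 and Ihh-ablated replicate 2, 4 genes (Ifit1, Irf7, H2-K1 and H2-D1) and 5 probe sets were called, while 2.96% of all genes rose. Quantile normalization, median-centred arrays, other floors and filters, no trend, robust eBayes and the mean of a gene's probe sets gave 0 calls. The median difference was positive in all alternatives run, and leaving out 1 array or either pair gave 0.029 to 0.268, lowest without control replicate 2 and Ihh-ablated replicate 3.

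Signs turned for some genes with small differences, and the cause was not tested. With median-centred arrays Gbp2 read 0.069 and Psmb8 0.019, with the mean of its probe sets Gbp2 read 0.020, and with array weights Stat2 read -0.016 and Gbp3 -0.13. Leaving out 1 array or either pair gave differences of -0.094 to 0.327 for Irf9, -0.067 to 0.118 for Stat2, -0.114 to 0.109 for Oas2, -0.057 to 0.621 for Oasl2, -0.0047 to 0.531 for Usp18, -0.179 to 0.077 for Gbp2, -0.34 to 0.263 for Gbp3, -0.025 to 0.299 for Parp14 and -0.071 to 0.137 for Tap1. Dim genes such as Dhx58, Cxcl10, Mx1, Usp18 and Ifit1 have no stated background, so their differences are the least certain. For Ifit1 the value of control replicate 2 (59.9) lay below the filter limit of 71.4.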
